A study of Rattus norvegicus with 12 samples.

Results

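The 9 genes followed here belong to amyloid precursor protein (APP) processing and inherited Alzheimer risk, and were read in N27 cells exposed to the pesticide fipronil: App, Psen2, Bace1, Aph1a, Ncstn, Psenen, Bin1, Clu and Apoe. They were taken as every probe that was not a control and whose gene name on the array was one of these symbols, which gave 12 probes for 9 of the 36181 genes on the array. Of these, 7 genes had a probe bright enough to be tested, among 13542 genes tested in all, and Bace1 and Apoe did not. N27 is an immortalised rat cell line from embryonic midbrain, grown as a model of dopamine neurons, and fipronil is a phenylpyrazole insecticide that blocks GABA-gated chloride channels. The fipronil group held 6 samples given 25 µM for 24 h, and the control group held 6 samples without fipronil. Whether controls received a vehicle was not stated, and no label tied the samples to separate cultures, so p-values measure how these samples scattered, which may be technical scatter alone. RNA of each sample was hybridised to 1 one-colour Agilent array.

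APP is a membrane protein that is cut first by an alpha-secretase or by the beta-secretase BACE1, and the remaining stump is then cut inside the membrane by gamma-secretase, which releases amyloid-beta after a BACE1 cut. Gamma-secretase is a complex of a presenilin (the catalytic part), nicastrin (encoded by Ncstn), APH-1 (Aph1a) and PEN-2 (Psenen), and it also cuts Notch and many other membrane proteins. BIN1 bends membranes in endocytosis, and clusterin (Clu) and apolipoprotein E (Apoe) are secreted lipid-carrying proteins; all of these are genes at which common variants alter the risk of late-onset Alzheimer disease.

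The promoters of Bin1, the member past the test, of Ncstn, whose groups did not overlap, and of App, the substrate, are printed to show the start sites behind these 3 readings. Each window is 300 bases long and spans the annotated start site, read 5′ to 3′ on the gene's strand from RefSeq for the rat build GRCr8, and capitals mark GC boxes. Bin1 lies at chr18:24283701-24284000 (plus strand), Ncstn at chr13:87078790-87079089 (minus strand) and App at chr11:37722789-37723088 (minus strand).
Bin1: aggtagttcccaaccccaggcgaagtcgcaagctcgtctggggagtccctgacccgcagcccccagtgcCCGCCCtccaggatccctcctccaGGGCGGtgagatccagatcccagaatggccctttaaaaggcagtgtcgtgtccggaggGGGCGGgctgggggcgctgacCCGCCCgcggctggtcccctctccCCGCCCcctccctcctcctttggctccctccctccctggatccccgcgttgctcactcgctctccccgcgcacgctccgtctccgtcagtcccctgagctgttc
Ncstn: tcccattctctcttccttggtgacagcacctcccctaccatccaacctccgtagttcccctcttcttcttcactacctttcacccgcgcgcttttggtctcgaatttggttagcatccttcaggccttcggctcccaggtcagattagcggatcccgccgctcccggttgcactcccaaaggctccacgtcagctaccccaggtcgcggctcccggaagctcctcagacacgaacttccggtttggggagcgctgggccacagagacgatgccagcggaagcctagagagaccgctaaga
App: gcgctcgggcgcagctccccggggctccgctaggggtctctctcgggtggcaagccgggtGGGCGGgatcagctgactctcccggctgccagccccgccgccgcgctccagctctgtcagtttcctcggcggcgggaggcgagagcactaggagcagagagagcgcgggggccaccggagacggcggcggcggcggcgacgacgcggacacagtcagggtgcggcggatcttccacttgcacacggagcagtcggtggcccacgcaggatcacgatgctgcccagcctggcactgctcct
The motifs searched, on both strands, were the GC box GGGCGG, the E-box CACGTG and the TATA box TATAAA, and no matches overlapped in the windows printed. The Bin1 window held 5 GC boxes, the Ncstn window 0 and the App window 1. Of the other members, Aph1a held 2 GC boxes, Psenen 1, and Psen2 and Bace1 0, while Apoe had 3 windows with 0, 2 and 2. Of the 9 genes, 8 were matched in the RefSeq table and Clu was not. No window of the 8 held CACGTG or TATAAA. Over 33469 rat promoters of the same length, 33.1% held a GC box, 6.42% the E-box and 14.2% the TATA box. A match is a run of letters in the window and does not show that a factor binds there.

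All values below are log2 signals relative to the 75th percentile of their own array, so that a difference of 1 between groups is a 2-fold difference, and 0 is the 75th percentile itself. Probes differ in how strongly they bind, so levels are compared between groups and never between genes. The 12 arrays lay on 3 slides, and slide and treatment nearly coincided: on slide 1 were controls 2 and 3 with fipronil samples 7 and 8, on slide 2 the other 4 controls, and on slide 3 the other 4 fipronil samples. The slides also differed in brightness, with a mean 75th percentile of 260 ± 16.9 units on slide 1, 436 ± 43.5 on slide 2 and 126 ± 15.2 on slide 3 (SD, n = 4 each). Between slides 2 and 3 a treatment effect and a slide effect cannot be told apart, so the difference of each tested member is also given within slide 1. The SE, interval and p-values of the slide 1 differences come from a fit of all 12 arrays with slide as a fixed term. Their spread is therefore shared over the 3 slides and is not that of the slide 1 arrays alone. Of the listed dopaminergic markers, Th was well above background on 12 arrays, Slc18a2 on 2, Nr4a2 on 1, and Slc6a3, Ddc and Pitx3 on 0.

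**Figure D1:**
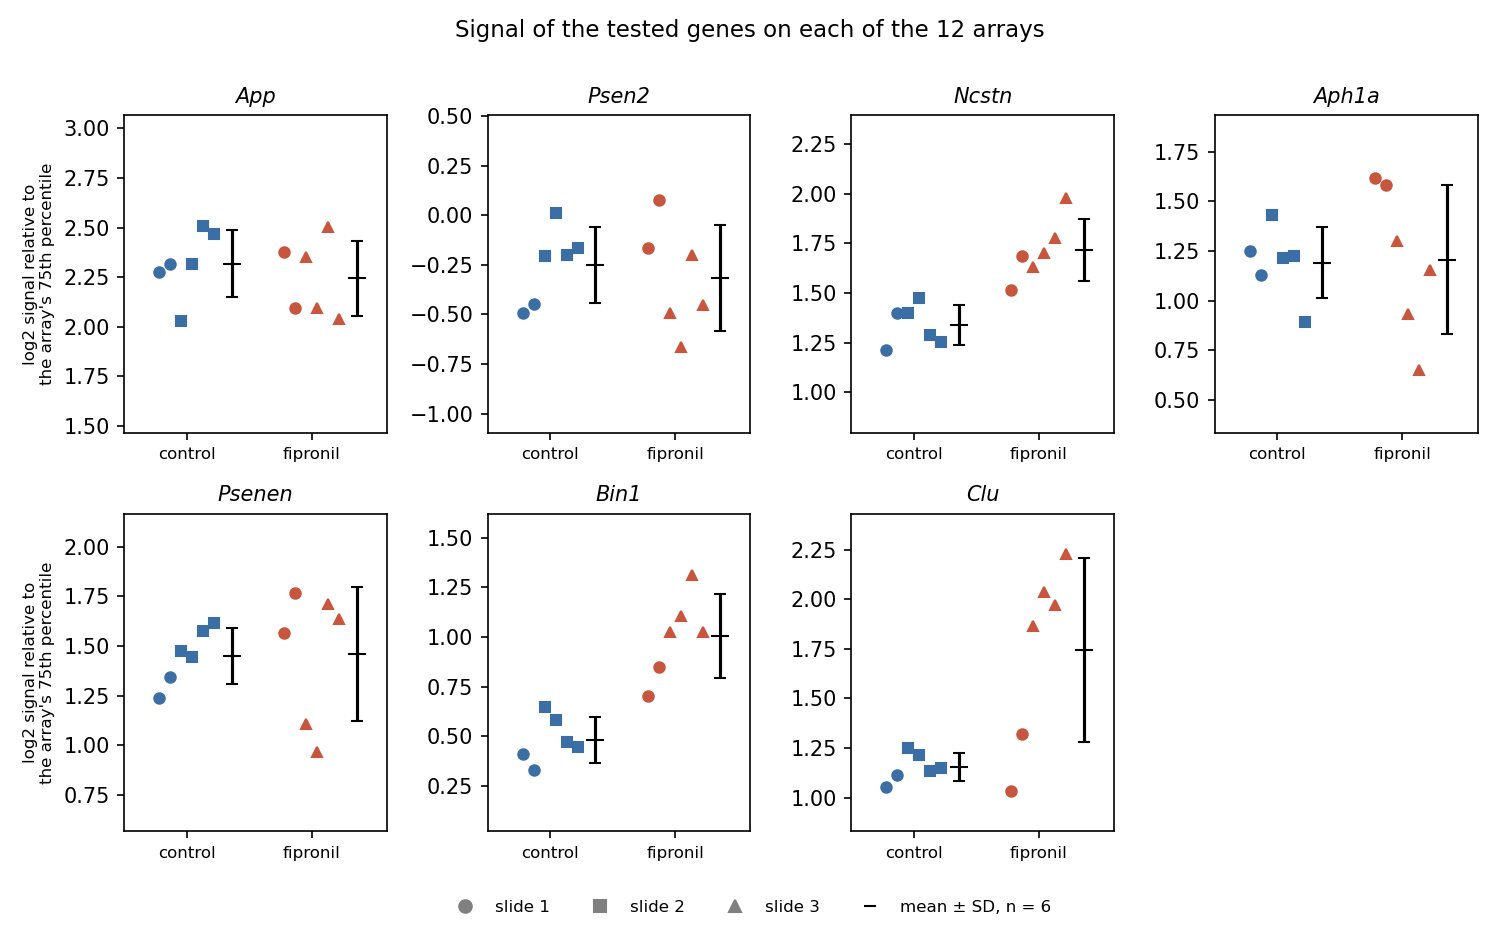
Signal of the 7 tested genes on each array (log2, relative to the 75th percentile of that array; every panel spans the same range of log2 units), by group, with the slide as the marker shape and the mean ± SD (n = 6) beside each group. The control and fipronil points of Ncstn and Bin1 do not overlap, Clu is high on the 4 slide 3 arrays and not on the slide 1 arrays, and the App groups cover almost the same range. Fipronil values lay wholly above control values for 1.63% of all genes tested.

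Over the 12 arrays, Bin1 was the 1 member of 7 tested that passed limma's test at an adjusted p under 0.05, and it rose 1.44-fold with fipronil. Over all genes tested, 678 of 13542 (5.01%) passed, 303 higher (2.24%) and 375 lower (2.77%) with fipronil. That split was 150 higher and 435 lower after median scaling, and 5113 higher and 1661 lower after normexp background correction with 75th percentile scaling. The median difference of the 7 members was 0.01 beside -0.08 for all genes. Ncstn (1.30-fold, adjusted p = 0.0521) and Clu (1.505-fold, adjusted p = 0.0740) were also higher with fipronil and missed the threshold. App, Psen2, Aph1a and Psenen differed by less than their spread between arrays.

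App, the substrate of the pathway, had control values with a lowest of 2.03, a median of 2.32 and a highest of 2.51. With fipronil its lowest value was 2.04, its median 2.22 and its highest 2.50. The groups thus covered almost the same range. The means were 2.32 ± 0.17 in control and 2.24 ± 0.19 in fipronil cells (SD, n = 6 each). The difference was -0.07 ± 0.12 (SE), with a 95% interval of -0.34 to 0.19 and an adjusted p of 0.740 by limma. On slide 1 it was -0.06 ± 0.21 (SE), and slide 3 minus slide 2 gave -0.08, close to the value over all arrays for this probe. A second App probe read 0.75 ± 0.15 in control and 0.83 ± 0.22 in fipronil cells (SD, n = 6 each). Its difference had the opposite sign, 0.08 ± 0.13 (SE, limma adjusted p = 0.739 over 16291 probes), with 0.27 on slide 1 and -0.02 between slides 3 and 2. With each probe tested apart, 1 of the 9 kept member probes passed, that of Bin1, beside 5.30% of all probes.

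Ncstn encodes nicastrin, the part of gamma-secretase that gates access of substrates. Its control values had a lowest of 1.21, a median of 1.34 and a highest of 1.47. With fipronil the lowest was 1.51, the median 1.69 and the highest 1.98. The lowest fipronil array therefore stood above the highest control array. Such a gap upward was found for 221 genes (1.63%) of all those tested. The means were 1.34 ± 0.10 and 1.72 ± 0.16 (SD, n = 6 each), a difference of 0.38 ± 0.10 (SE) with a 95% interval of 0.15 to 0.60. On slide 1 the difference was 0.30 ± 0.17 (SE, limma adjusted p = 0.352), and between slides 3 and 2 it was 0.42. The first minus the second was -0.12 (adjusted p = 0.697 for limma's contrast of the 2 differences). Ncstn passed the threshold when fipronil replicate 7 (adjusted p = 0.0381) or fipronil replicate 8 (adjusted p = 0.0377), both on slide 1, was left out, and in the other 10 such fits it did not. Without those replicates 889 and 2022 of all genes passed, beside 678 with all 12 arrays. The Ncstn direction was the same in all 31 alternatives tried, of which 9 gave an adjusted p under 0.05. Because the groups did not overlap, leaving out arrays or slides could not change that direction. Other filters and probe summaries returned the same difference, as Ncstn had 1 probe. The 31 are therefore not independent readings. The Ncstn difference fell to 0.17 after normexp correction with 75th percentile scaling (adjusted p = 0.123) and to 0.28 after median scaling (adjusted p = 0.198).

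Psen2, a catalytic subunit of gamma-secretase, had control values with a lowest of -0.49, a median of -0.20 and a highest of 0.01. With fipronil the lowest was -0.67, the median -0.33 and the highest 0.07. The groups overlapped throughout, yet their order differed by slide: on slide 1 both fipronil arrays (-0.17 and 0.07) stood above both control arrays (-0.49 and -0.45). On slide 3 the 4 fipronil arrays averaged -0.45, below the slide 2 control mean of -0.14. Over the 12 arrays the difference was -0.07 ± 0.14 (SE, 95% interval -0.37 to 0.24, limma adjusted p = 0.809). On slide 1 it was 0.43 ± 0.18 (SE, limma unadjusted p = 0.0355, adjusted p = 0.232), and slide 3 minus slide 2 gave -0.31. The gap of 0.74 between those 2 differences had an adjusted p of 0.0551 by limma, and under each of the 4 other scalings tried that adjusted p lay between 0.00771 and 0.0473. It also fell under 0.05 without fipronil replicate 3 (0.0312) or fipronil replicate 7 (0.0403), and in the other 10 fits without 1 array it did not. A second Psen2 probe was higher with fipronil by 0.33 ± 0.17 over all arrays (SE, limma adjusted p = 0.248), by 0.64 on slide 1 and by 0.18 between slides 3 and 2. The second probe was thus higher with fipronil in all 3 readings, and the change of sign between slides was a reading of the first probe alone.

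Aph1a encodes a scaffold subunit of gamma-secretase. Its control values had a lowest of 0.89, a median of 1.22 and a highest of 1.43. With fipronil the lowest was 0.65, the median 1.23 and the highest 1.62. The 2 highest fipronil values, 1.62 and 1.58, were those of slide 1, and the 4 arrays of slide 3 averaged 1.01. The difference was 0.01 ± 0.17 (SE, 95% interval -0.35 to 0.38, limma adjusted p = 0.964) over all arrays and 0.41 ± 0.23 (SE, adjusted p = 0.346) on slide 1. A second Aph1a probe stood well above background on 3 control arrays and 1 fipronil array and was not tested.

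Psenen encodes PEN-2, which takes part in the maturation of the presenilin. Its control values had a lowest of 1.24, a median of 1.46 and a highest of 1.61. With fipronil the lowest was 0.96, the median 1.601 and the highest 1.77. The fipronil arrays were more spread than the controls, with an SD of 0.34 against 0.14 (n = 6 each). The difference was 0.01 ± 0.15 (SE, 95% interval -0.32 to 0.34, limma adjusted p = 0.974) over all arrays and 0.37 ± 0.24 (SE, adjusted p = 0.415) on slide 1.

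The gamma-secretase genes shared a direction on slide 1. At the probe used for each gene, the 4 members of the complex and Aph1b, an alternative scaffold subunit, were higher there on both fipronil arrays than on both controls. The differences ran from 0.30 (Ncstn) to 0.43 (Psen2). The second Psen2 probe read 0.64 on slide 1. The second Aph1a probe, near background and not tested, read -0.95 there. On that slide both fipronil arrays stood above both controls for 25.2% of all genes, 48.4% of all genes had a difference above 0, and the median difference of all genes was -0.02. These 5 genes stayed higher on slide 1 under each of the 4 other scalings tried, with values between 0.26 and 0.53, though rescaling reuses the same arrays. The highest values came after median scaling (0.40 to 0.53). There the median difference of all genes on slide 1 was 0.09, and 58.5% of all genes were above 0. Under the other scalings 50.5% to 53.9% of all genes were above 0. Between slides 3 and 2, however, the differences of Psen2, Aph1a, Psenen and Aph1b lay between -0.31 and -0.17, although the second Psen2 probe read 0.18, and Ncstn was higher (0.42). None of the 5 passed the adjusted threshold over 12 arrays or on slide 1 by limma. At an unadjusted p under 0.05, 1 of the 5 passed over 12 arrays and 1 on slide 1, where 25.0% and 19.0% of all genes did so. On slide 1, 12 of all genes (0.0886%) passed the adjusted threshold and 0 of the 7 members did. At an unadjusted p under 0.05, 2 members passed on slide 1, Psen2 and Bin1.

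**Figure D2:**
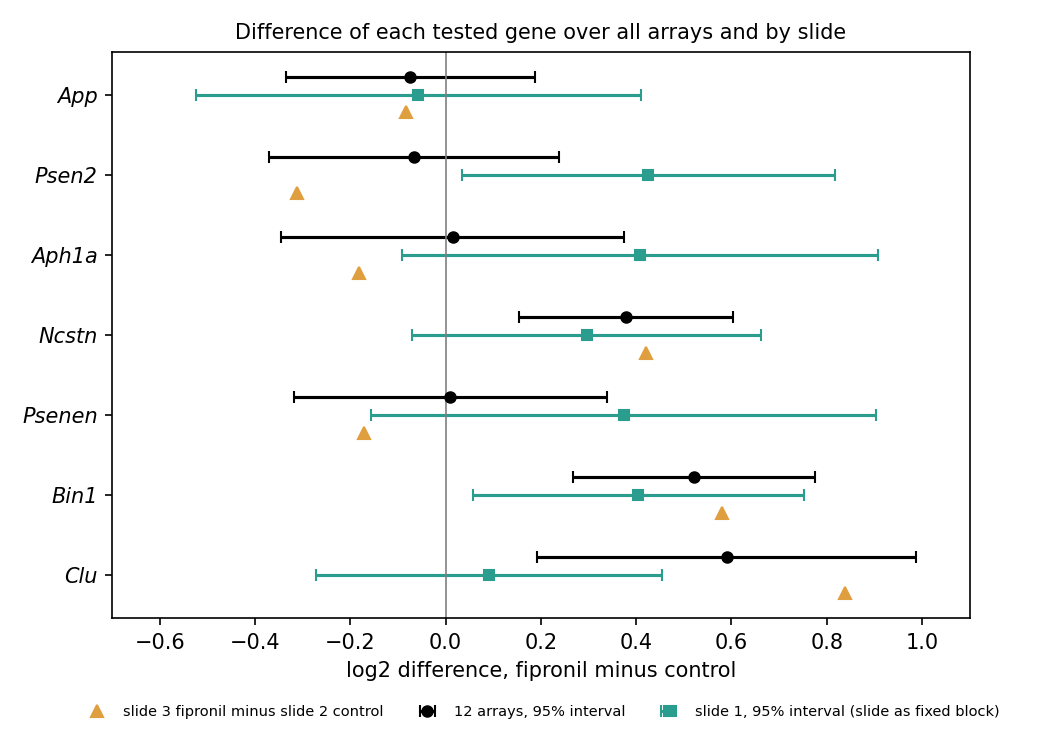
Difference of each tested gene, fipronil minus control (log2), over 12 arrays and on slide 1, each with its 95% interval, and between slide 3 fipronil and slide 2 control arrays (means, no interval drawn). Bin1 and Ncstn are above 0 in all 3 readings, Clu is above 0 chiefly between slides (0.84 against 0.09 on slide 1), and Psen2, Aph1a and Psenen change sign between the readings.

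Bin1 encodes a membrane-bending adaptor of endocytosis, the route by which APP and BACE1 reach endosomes. Its control values had a lowest of 0.33, a median of 0.46 and a highest of 0.65. With fipronil the lowest was 0.70, the median 1.02 and the highest 1.31. All 6 fipronil arrays were higher than all 6 control arrays, as they were for 221 (1.63%) of the 13542 genes tested. The 2 fipronil arrays of slide 1 (0.70 and 0.85) were the lowest of their group. The means were 0.48 ± 0.12 and 1.003 ± 0.21 (SD, n = 6 each). The difference was 0.52 ± 0.12 (SE, 95% interval 0.27 to 0.78, limma adjusted p = 0.0284). On slide 1 it was 0.40 ± 0.16 (SE, 95% interval 0.06 to 0.75, limma unadjusted p = 0.0264, adjusted p = 0.208), and between slides 3 and 2 it was 0.58. The first minus the second was -0.18 (adjusted p = 0.550 for limma's contrast).

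The Bin1 call depended on which arrays entered, as did the count over all genes, while the Bin1 difference ran from 0.46 to 0.58. The call held in the fits that left out fipronil replicate 7, fipronil replicate 8 or control replicate 5 (adjusted p = 0.0178, 0.0157 and 0.0395 by limma). In those fits 889, 2022 and 343 of all genes passed, beside 678 with all 12 arrays. The Bin1 call was lost in the other 9 such fits, with adjusted p up to 0.0660, and in each of these fewer genes passed than with all 12 arrays. With slide as a random block the Bin1 difference was 0.48 with an adjusted p of 0.114, and after median scaling it was 0.42 with an adjusted p of 0.0880. Its direction was the same in all 31 alternatives tried, of which 16 gave an adjusted p under 0.05. Because the groups did not overlap, leaving out arrays or slides could not change that direction. Other filters and probe summaries returned the same difference, as Bin1 had 1 probe. The 31 are therefore not independent readings. The 2 genes whose values followed those of Bin1 most closely over the 12 arrays were Mrpl23 (Pearson r = 0.977) and Mtres1 (r = 0.969), as a description that includes the shared difference between groups and slides. With group and slide means removed, those correlations were 0.79 and 0.58.

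Clu encodes clusterin, a secreted chaperone that binds amyloid-beta. Its control values lay close together, with a lowest of 1.06, a median of 1.14 and a highest of 1.25. With fipronil the lowest was 1.03, the median 1.92 and the highest 2.23. The fipronil arrays fell apart by slide: the 4 arrays of slide 3 lay between 1.86 and 2.23, above every control, whereas the 2 arrays of slide 1 read 1.03 and 1.32, beside slide 1 controls of 1.06 and 1.12. The means were 1.15 ± 0.07 and 1.74 ± 0.46 (SD, n = 6 each). Over 12 arrays the difference was 0.59 ± 0.18 (SE, 95% interval 0.19 to 0.99, limma adjusted p = 0.0740). On slide 1 it was 0.09 ± 0.17 (SE, 95% interval -0.27 to 0.45, limma adjusted p = 0.807), against 0.84 between slides 3 and 2. The slide 1 difference was smaller by 0.75 (limma adjusted p = 0.0437), a contrast that 9.14% of all genes passed. Leaving out arrays singly, that contrast kept an adjusted p under 0.05 in 3 of 12 fits, those without control replicate 8, fipronil replicate 3 or fipronil replicate 4, with adjusted p between 0.0452 and 0.147 over the 12. Under 4 other scalings it ranged from 0.0167 to 0.215. In the fits that ignored slide, Clu passed without fipronil replicate 7 (adjusted p = 0.0194) or without fipronil replicate 8 (adjusted p = 0.0304), the fipronil arrays of slide 1. Without those replicates 889 and 2022 of all genes passed, beside 678 with all 12 arrays. For Clu, 7 of the 31 alternatives tried gave an adjusted p under 0.05. Without slide 3 its difference was 0.02, with an adjusted p of 0.962 by limma.

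Bace1, the beta-secretase whose cut starts the release of amyloid-beta, had 1 probe, and it stood well above background on 0 of 12 arrays. Its signal had a median of -6.49 in control and -5.81 in fipronil cells, not well above background in either group, so no fold is given. Apoe, the apolipoprotein of the main common risk allele, had 1 probe in 10 spots. It was called well above background on control replicates 6 and 8, where 5 of the 10 spots passed, and on 0 fipronil arrays. Its measured values ran from -5.92 to -4.50 in control and from -6.10 to -4.57 in fipronil cells, which overlap. Both genes stayed below the filter, which asked for at least 6 of 12 arrays, and no difference of theirs was tested. The lack of a signal here is a limit of these probes on these arrays and does not show that either RNA was absent.

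**Figure D3:**
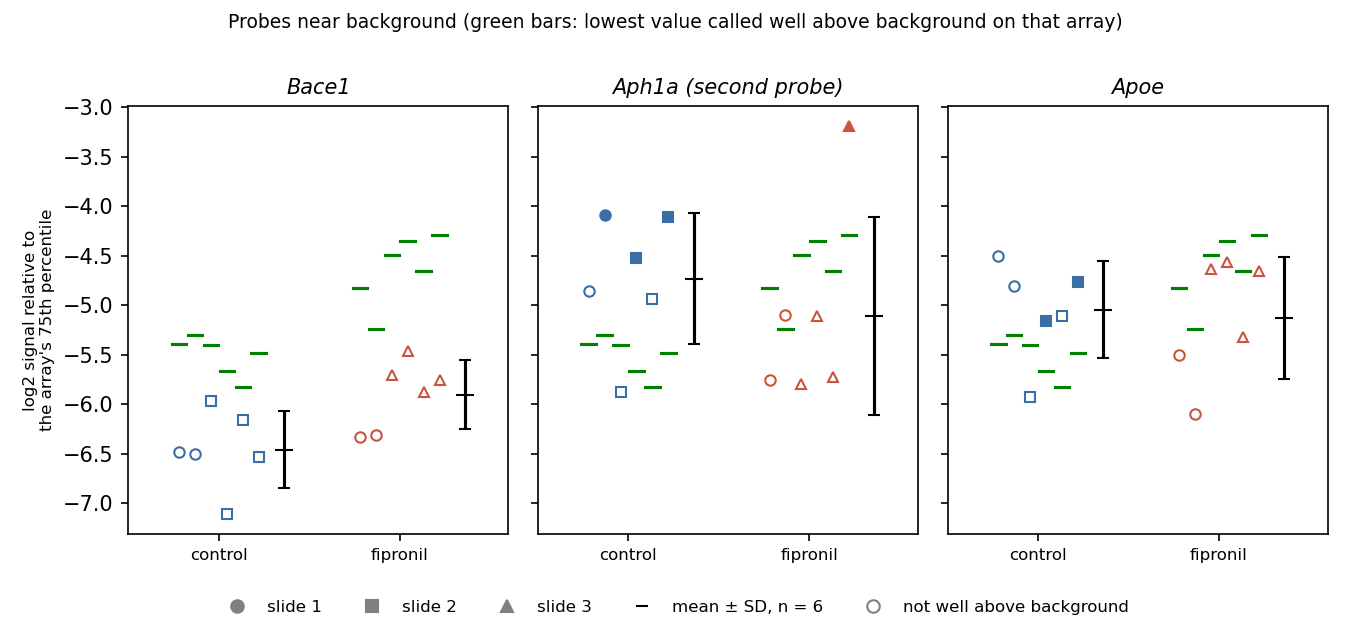
Signal (log2, relative to the 75th percentile of that array) of the 3 probes that did not pass the filter, by group, with the mean ± SD (n = 6) and, as green bars, the faintest value that was called well above background in that hybridisation. Filled markers were called well above background: 0 for Bace1, 4 for the second Aph1a probe and 2 for Apoe. An Apoe marker is filled where at least 5 of its 10 spots were called.

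The wider pathway was read from lists of 94 genes, of which 61 were tested and 7 passed over 12 arrays by limma (11.5% beside 5.01% of all genes), 4 higher and 3 lower with fipronil. With slide as a random or a fixed block 0 of the 61 passed by limma, when 21 and 12 of all genes did. At an unadjusted p under 0.05, 17 of the 61 passed over 12 arrays and 15 on slide 1, where 25.0% and 19.0% of all genes did so. Without the 9 genes above, 3 of 54 rose and 3 fell, and 1 of those that fell, Adam9, met the filter through its control arrays. With members counted in, the lists of APP with its homologues and of gamma-secretase had 0 of 3 and 0 of 5 tested genes past the threshold. Aplp1 differed by 0.11 (0.47 on slide 1), Aplp2 by -0.11 (0.25 on slide 1) and Aph1b by -0.06 (0.39 on slide 1). Among alpha- and beta-secretases 1 of 3 tested passed: Adam9, a metalloprotease, fell by 0.92 (adjusted p = 0.0196), with -0.95 on slide 1. It was well above background on 6 control arrays but on 1 fipronil array only, so the controls alone brought it past the filter. Most of its fipronil values were near background, and the size of its fall is uncertain. Its difference turned to 0.48 after normexp correction with 75th percentile scaling. Leaving out control replicate 7 ended the call, at an adjusted p of 0.0511.

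In APP sorting and endocytosis, 2 of 10 tested genes rose, Bin1 and Lrp1, and Lrp1 is also the 1 of 6 tested genes that rose among lipoproteins and their receptors, the list that holds Clu. Lrp1, a receptor that takes up apolipoprotein E particles and APP, rose by 0.45 ± 0.12 (SE, limma adjusted p = 0.0469), with 0.60 on slide 1 (adjusted p = 0.164) and an adjusted p of 0.148 with slide as a random block. Of the 12 fits without 1 array, its call held in the 2 without control replicate 8 or fipronil replicate 8. The calls over all genes also changed with the array left out: 314 and 2022 passed in those 2 fits, beside 678 with all 12 arrays. Among amyloid-beta degrading enzymes 1 of 4 rose: Ctsb, the lysosomal protease cathepsin B, was higher by 0.41 ± 0.10 (SE, limma adjusted p = 0.0307) and by 0.56 on slide 1 (adjusted p = 0.118), with an adjusted p of 0.0969 with slide as a random block. Under 6 other scalings its difference ranged from 0.14 to 0.43, and 4 of them gave an adjusted p under 0.05. The Ctsb call was lost in 8 of 12 fits without 1 array and held without control replicate 6 or fipronil replicates 4, 7 or 8. Among other Alzheimer risk genes 2 of 9 fell: Tmem106b, a lysosomal membrane protein, by 0.85 ± 0.14 (SE, limma adjusted p = 0.0120), and Adamts1, a secreted metalloprotease, by 0.78 ± 0.15 (SE, adjusted p = 0.0154). Both kept an adjusted p under 0.05 in all 12 fits without 1 array, but both calls were lost with slide as a random block (adjusted p = 0.0802 for Tmem106b and 0.0724 for Adamts1). On slide 1 they read -0.68 and -0.97 (adjusted p = 0.183 and 0.0982). Under 6 other scalings the Tmem106b difference ranged from -0.95 to -0.10, and 5 of those 6 gave an adjusted p under 0.05. Of tau and its kinases 1 of 7 rose, Gsk3b, a kinase that phosphorylates tau, by 0.69 ± 0.17 (SE, limma adjusted p = 0.0396). Gsk3b read 0.05 on slide 1 and 1.01 between slides 3 and 2, a gap of -0.95 (adjusted p = 0.0430), and of the 12 fits without 1 array its call held in the 3 without control replicate 2, control replicate 3 or fipronil replicate 8. Of APP adaptors and regulators 0 of 9 passed by limma, and 2 did at an unadjusted p under 0.05, beside 25.0% of all genes. These were Tmed10 (-0.43, adjusted p = 0.0680) and Gga1 (-0.34, adjusted p = 0.135), which read -0.03 and -0.04 on slide 1. Of gamma-secretase substrates and Notch outputs 0 of 6 passed by limma, and 2 did at an unadjusted p under 0.05, beside 25.0% of all genes. These were Cd44 (0.33, adjusted p = 0.0776) and Notch3 (0.38, adjusted p = 0.186), which read 0.13 and 0.21 on slide 1. Notch3 was well above background on 2 fipronil arrays only, and its difference ranged from 0.08 to 0.78 under 6 other scalings.

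**Figure D4:**
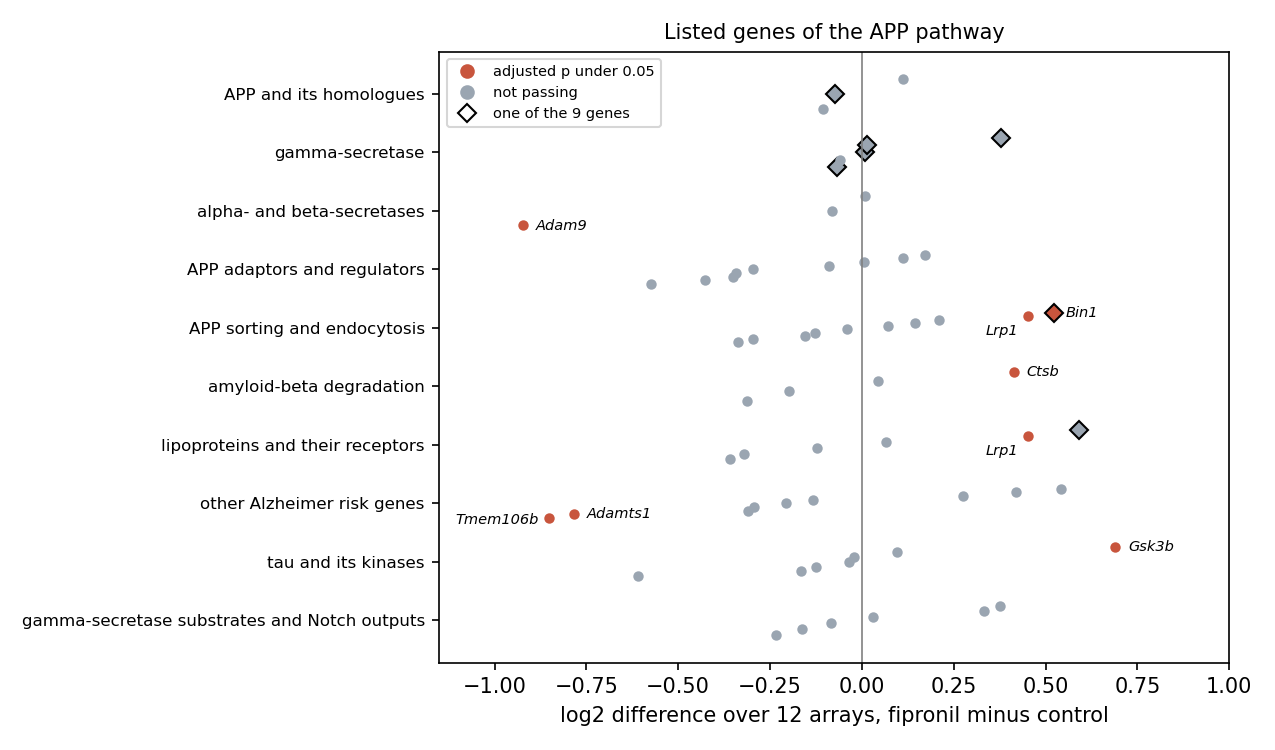
Difference over 12 arrays, fipronil minus control (log2), of every tested gene in 10 lists of the pathway, with a diamond for each of the 9 genes followed here that was tested. Bin1, Lrp1, Ctsb and Gsk3b lie above 0 and Adam9, Tmem106b and Adamts1 below 0 among the 7 genes past the threshold, and Lrp1 is drawn in 2 lists. Adam9 was well above background on 1 fipronil array only.

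Clu and Apoe are best known from astrocytes, and both may be expressed by other cells, so markers of other brain cells were read beside them. Of the 8 astrocyte markers, Gfap, Aldh1l1, S100b, Slc1a2 and Slc1a3 were well above background on 0 arrays, Aqp4 on 1, and Aldoc and Sox9 on 12. Their summed signal, as a multiple of the array's 75th percentile over the 3 genes seen on any array, ran from 0.956 to 1.42 in control and from 0.849 to 1.53 in fipronil cells. Of the 7 microglial markers, Cx3cr1, Tmem119 and Cd68 were well above background on 12 arrays, P2ry12 on 1, and Aif1, Csf1r and Itgam on 0, and the sum over 4 genes ran from 0.7105 to 1.06 in control and from 0.935 to 1.21 in fipronil cells. The neuronal sum over 3 of 8 markers ran from 0.334 to 0.490 in control and from 0.471 to 0.650 in fipronil cells, and 2 of the 8 were tested. Ncam1, a neuronal adhesion molecule, rose by 0.73 (limma adjusted p = 0.0171), with 0.25 on slide 1 (adjusted p = 0.465) and 0.97 between slides 3 and 2. Tubb3, a neuronal tubulin, read -0.36 (limma adjusted p = 0.678), with opposite signs by slide: 1.09 on slide 1 (adjusted p = 0.421) and -1.08 between slides 3 and 2. The oligodendrocyte sum over 3 of 6 markers ran from 0.191 to 0.350 and from 0.136 to 0.311, and the endothelial sum over 3 of 5 from 3.53 to 4.88 and from 3.51 to 4.98. The dopaminergic sum over 3 of 6 ran from 0.330 to 0.505 and from 0.261 to 0.523. N27 is a cell line, so a marker well above background here does not show that cells of that kind were present. The part of these markers in the member results was not tested. In RNA from whole cultures, fewer cells of a kind and less RNA per cell cannot be told apart.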

How the data were processed

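Agilent Feature Extraction 10.7 is named in the submitters' processing notes. The authors' processed signal is, per the file headers, a background-subtracted intensity, and the mean signal and local background are raw intensity values, while the well-above-background, saturation and outlier columns are flags, other values of 0 or 1. The series table holds log2 values deposited by the authors, quantile-normalized per the labels, with a median of 2.63 in each column. Each column followed the processed signal of its own array, and the values were not centred. Each array had 62976 spots, of which 58717 were not controls (45598 probes); 0 of these were saturated and 323 to 711 per array were outliers, which were left out.

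Here log2(processed signal) minus the array's 75th percentile was averaged over the spots of a probe. A probe was kept when well above background on at least 6 of 12 arrays (16291 probes; 9 of the 12 member probes), and the brightest kept probe stood for a gene. Groups, from the treatment labels, were compared with limma 3.58.1 in R 4.3.3 (lmFit, eBayes, two-sided, Benjamini-Hochberg over 13542 genes, threshold 0.05), without slide, with slide as a fixed term (slide 1), and as a contrast of the 2 slide differences. Scripts were tested on simulated data. Names came from the RefSeq annotation of GRCr8 by accession (21109 probes), symbol (6684) or synonym (424), or stayed as in the file (17381). Coordinates in the array files were not used. The number of arrays, 6 per group, limits the precision.

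Named were every member and, per pathway list, up to 4 further genes past the threshold by adjusted p or, with none, the 2 with the smallest unadjusted p, and for likeness the 2 genes with the highest correlation with each member past it. The members and lists (APP and homologues, secretases, adaptors, sorting, degradation, lipoproteins, other risk genes, tau kinases, substrates, and markers of 6 cell kinds) were chosen with earlier results of these data known, and 1 listed gene is not reported here. Replicate numbers were not used to pair the arrays in the main fit. Same-numbered control and fipronil arrays lay on different slides, and the labels do not say whether equal numbers share a culture or a day. Alternatives were other scalings, backgrounds, dim-probe filters and probe summaries, slide and replicate blocks, array weights and leaving out arrays or slides.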

Additional observations from a re-analysis of the deposited data

Results flagged for a closer look

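Dixon's test was run on 50 groups of 6 arrays and marked 2, where chance marks about 1 in 20. The second Aph1a probe read -3.18 on fipronil replicate 4, the 1 fipronil array on which it was well above background, against -5.10 on the nearest fipronil array. Aplp1, a homologue of APP, read -2.78 on control replicate 2 against -2.62 on the nearest control array.

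The Clu difference on slide 1 departed from that between slides 3 and 2 by -0.75 (limma adjusted p = 0.0437), with 0.09 on slide 1. The same departure was -0.95 for Gsk3b (adjusted p = 0.0430). Slide 1 held 2 arrays of each group, and treatment and slide cannot be told apart in the other difference.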

How the results depend on the processing

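Over 12 arrays the 1 member past the threshold became 2 after quantile normalization, 3 after normexp with quantile normalization, 2 after normexp with 75th percentile scaling and 2 in the authors' deposited table. It became 3 with no filter on dim probes, 2 with probes well above background on all arrays, 3 with array weights and 3 on slides 2 and 3 alone. It became 0 after median scaling, with slide as a random block, with slide as a fixed block (the fit that gives the slide 1 differences), and without slide 3 or without slide 2. The members called in any of these were Bin1, Ncstn and Clu. The 7 listed pathway genes became 3 after median scaling, 36 after normexp with 75th percentile scaling, 27 with no filter, 15 with array weights and 13 on slides 2 and 3 alone, and 0 with a random or fixed slide block or without slide 3 or slide 2. The 678 genes of the whole array became 6774 after normexp with 75th percentile scaling, 16313 with no filter, 2219 with array weights, 3044 on slides 2 and 3 alone, 21 with a random slide block, 12 with a fixed one, and 0 without slide 3 or slide 2. With no filter, 9 members, 91 listed genes and 36181 genes were tested, against 7, 61 and 13542 in the main fit. The filter for all arrays tested 7 members and 10608 genes. Counts under those filters therefore stand over other totals. Normexp with 75th percentile scaling moved the median difference of all genes from -0.08 to 0.17, and median scaling moved it to -0.18. With no filter that median was 0.55, and 15088 of the 16313 genes called were higher with fipronil. With replicate number as a block, which shares numbers and not slides, the counts were 0 members, 0 listed genes and 0 genes; the correlations of deviations between equal numbers were 0.43, 0.08, -0.11 and -0.31.

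Leaving out 1 array gave 0 to 3 members, 2 to 13 listed genes, 228 to 2022 genes, 0 to 3 member probes tested apart (main 1) and 0 to 2 members in the contrast of the slide differences (main 1). That contrast gave 2 members after quantile normalization, 2 after normexp with quantile normalization and 3 after normexp with 75th percentile scaling. The count on slide 1 was 0 throughout.

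Differences near 0 changed sign. Aph1a (0.01) became -0.0866 after median scaling, -0.161 after normexp with 75th percentile scaling, -0.0532 with the GC trend removed, -0.0469 with array weights and -0.18 on slides 2 and 3 alone, and ran from -0.0674 to 0.13 with 1 array left out. Psenen (0.01) became -0.0918 after median scaling, -0.105 after normexp with 75th percentile scaling, -0.0600 with array weights and -0.17 on slides 2 and 3 alone, and ran from -0.0525 to 0.11 with 1 array left out. Psen2 (-0.07) became 0.0024 after normexp with 75th percentile scaling, 0.133 as the mean over probes, 0.0894 with a random slide block, 0.0874 with the replicate block, 0.43 on slide 1, 0.20 without slide 3, 0.155 without slide 2 and 0.33 at its other probe, and ran from -0.14 to 0.0031 with 1 array left out. App (-0.07) became 0.0014 as the mean over probes and 0.0767 at its other probe. On slide 1, App (-0.06) became 0.0487 after median scaling and ran from -0.198 to 0.0839 with 1 array left out, and Clu (0.09) ran from -0.0547 to 0.235. The causes were not tested. Alternatives for the slide contrast, for single probes, for all genes and without a slide were chosen after seeing the data. Signal over background limits Bace1, Apoe and the second Aph1a probe.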
